A study of Mus musculus with 8 samples.

Results

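RNA polymerase I is the enzyme that copies ribosomal RNA genes, and 9 genes of its machinery were followed here through a mouse embryonic stem cell experiment. They are the polymerase subunits Polr1a, Polr1b, Polr1c and Polr1e, the initiation factors Ubtf, Rrn3 and Taf1d, and the nucleolar phosphoproteins Tcof1 and Nolc1. They were chosen by name as members of this machinery, with earlier results of these data known. Each gene was matched to the gene identifiers of the deposited expression tables and has 1 entry there. They make up 9 of the 20388 genes kept and 9 of the 11867 genes expressed highly enough to be tested.

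The cells were derived from mice with a floxed allele of Htatsf1, a gene for a factor linked to transcription elongation and splicing, and with CreERT2, a recombinase that acts in the nucleus once tamoxifen is given. Ethanol, the vehicle, was the control, and each agent was applied for 48 h or 72 h, which gives 4 groups of 2 libraries. All groups carried the floxed allele and CreERT2 and were grown on mouse embryonic fibroblasts, so each library can hold fibroblast RNA, and no group had tamoxifen without the floxed allele. Nothing in the labels states that paired libraries stem from different cultures. A p-value here therefore covers the variation among the libraries sequenced, and that variation may be technical only.

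RNA polymerase I works in the nucleolus, where it reads the ribosomal DNA repeats into a precursor that is cut into the large ribosomal RNAs. UBF, the product of Ubtf, keeps active repeats open, the selectivity factor that contains the Taf1d product marks the promoter, and the Rrn3 protein joins to the polymerase to let it start. Treacle, from Tcof1, binds UBF and the polymerase, and Nolc1 is a chaperone of the small nucleolar particles that modify the new RNA. Rapidly dividing cells such as embryonic stem cells need high ribosome production, and the activity of this machinery is known to follow growth signals.

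Values are FPKM, fragments scaled to transcript length and to the mapped fragments of the library, a unit in which levels can be compared between genes. The tables imply a depth between 8.99 M fragments and 16.8 M fragments per library. A member was covered by 344.0 to 8527 fragments in a library, which alone gives a counting SD of 1.08% to 5.39% of the value. Htatsf1, the targeted gene, lay at 21.7 to 23.0 FPKM in the 4 ethanol libraries and at 3.78 to 4.63 FPKM in the 4 tamoxifen libraries. Stem cell markers were abundant in every library, led by Dppa5a, Pou5f1 and Tdgf1, whereas Sox2 is listed at 0 in all 8 libraries, which is how the tables give it and no measure of its expression. The summed FPKM of 30 fibroblast markers, led by Thbs1, Fn1 and Vim, was 968 to 1016 at 48 h and 978 to 1006 at 72 h with ethanol. It was 1392 to 1420 and 1857 to 1995 at those times with tamoxifen, and none of the 30 was at 0. In bulk RNA, fewer cells of a type and less RNA per cell cannot be told apart.

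All 9 genes were expressed in every library, over a range of nearly an order of magnitude. In ethanol at 48 h, Nolc1 was the most abundant at 115 ± 4.95 FPKM (SD, n = 2), followed by Rrn3 at 105 ± 1.52 and Polr1c at 101 ± 2.03. Polr1e was the least abundant at 14.8 ± 0.60 FPKM and lay at the 62.1 percentile of the tested genes, whereas the other 8 lay at the 81.3 percentile or above. Between them came Taf1d, Tcof1, Polr1b, Ubtf and Polr1a in falling order, and no neighbours in this order overlapped. In tamoxifen at 48 h the libraries of Nolc1 and Rrn3 overlapped, as did those of Ubtf and Polr1b. At 72 h Rrn3 stood first, Polr1c next and Nolc1 after them in both treatments. Overlapping neighbours at 72 h were Taf1d with Tcof1 in ethanol and Polr1a with Polr1b in tamoxifen.

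**Figure D1:**
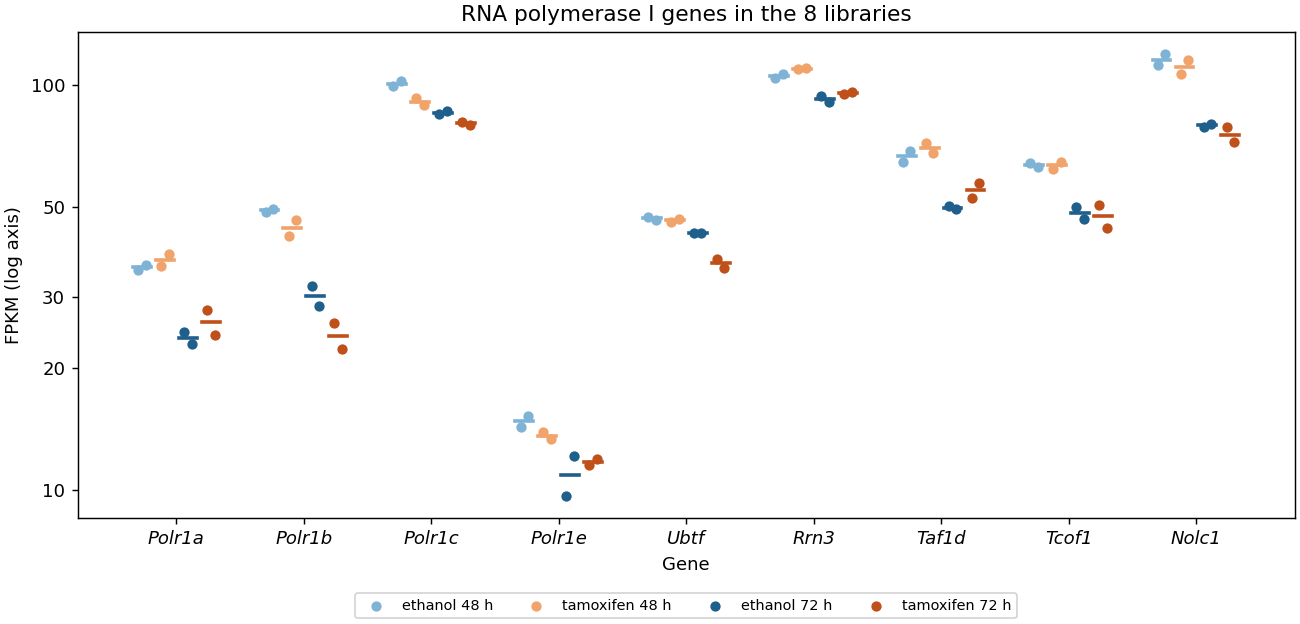
FPKM on a log axis for the 9 genes, with a point per library and a bar at each group mean of 2 libraries. For every gene the 72 h points of a treatment lie below its 48 h points, by a wide gap in Polr1a, Polr1b and Nolc1 and a small one in Rrn3.

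The clearest pattern among these genes was a lower level at 72 h than at 48 h. With ethanol alone, 8 of the 9 genes fell between the times and none rose, while 19.2% of all tested genes fell and 38% rose (limma, adjusted p under 0.05). With tamoxifen, again 8 of 9 fell and none rose, against 19.6% and 37.5% of all tested genes. In both treatments each of the 9 genes had both 72 h libraries below both 48 h libraries, a separation that 29.4% of tested genes showed with ethanol and 28.3% with tamoxifen. The median log2 change in FPKM + 1 over the 9 genes was -0.41 with ethanol and -0.35 with tamoxifen, beside 0.11 for all tested genes in each treatment. Summed over the 9 genes, the level was 597 ± 11.5 FPKM (SD, n = 2) at 48 h and 462 ± 4.76 FPKM at 72 h with ethanol, and 585 ± 7.75 and 451 ± 12.2 FPKM with tamoxifen.

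**Figure D2:**
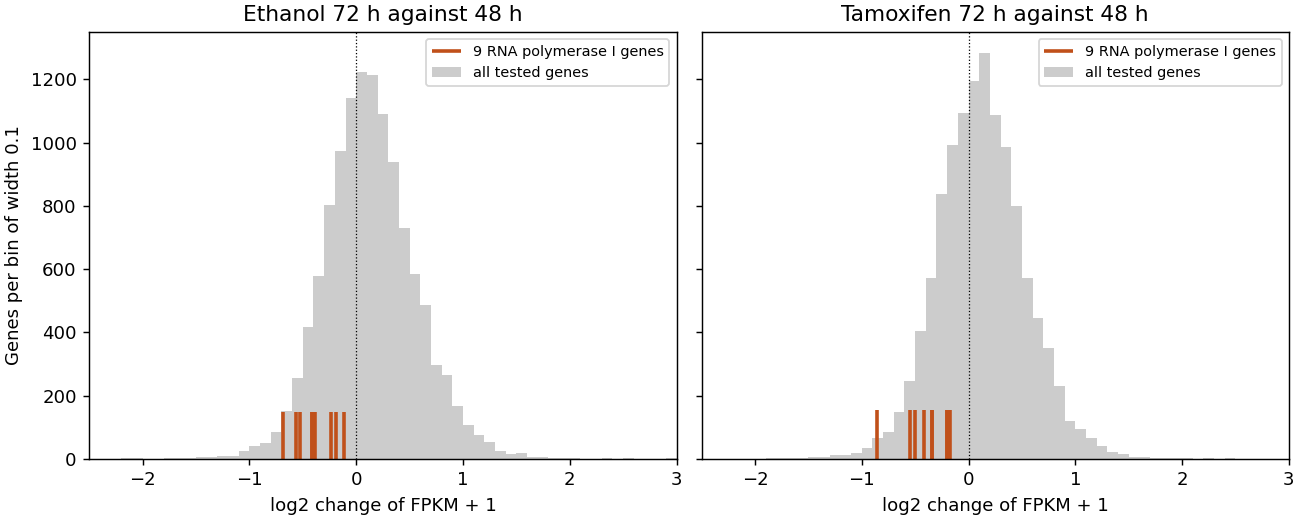
Number of tested genes per bin of log2 change in FPKM + 1 between 48 h and 72 h, with ethanol and with tamoxifen, in grey, with a vertical mark for each of the 9 RNA polymerase I genes. All 9 marks lie below 0 in both panels, while the median of all tested genes is 0.11.

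The scale of the libraries moved the background, and it moved the members alike with median-ratio scaling but little with quantile scaling. Of all genes called between the times with ethanol, 66.4% were higher at 72 h on the deposited scale and 49.8% after median-ratio scaling of the libraries. With tamoxifen the shares were 65.6% and 50%, and for tamoxifen against ethanol at 48 h they were 63.8% and 51.6%. Median-ratio scaling moved the median of all tested genes from 0.11 to -0.002 with ethanol and to 0.012 with tamoxifen. The members' medians then became -0.53 and -0.46. With quantile scaling, the median of all tested genes was -0.011 with ethanol and -0.008 with tamoxifen. The members' medians were then -0.395 and -0.331, beside -0.411 and -0.346 on the deposited scale. All 48 h libraries share a number in their deposited names and all 72 h libraries share another, and the meaning of these numbers is not given in the sources used here, so what they stand for cannot be told apart from time. The fibroblast marker sums with ethanol were alike at both times, although among the 29 markers tested 4 rose and 9 fell by 72 h (median log2 change 0.03). With tamoxifen, 23 were higher and 1 lower at 72 h (median 0.44). Of 16 stem cell markers, 7 were higher and 5 lower at 72 h with ethanol (median 0.12), and 6 higher and 8 lower with tamoxifen (median -0.15). The part of either marker list in the changes over time was not tested.

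Among the 4 polymerase subunits followed here, those of the catalytic core fell most. Polr1a (chr6:71859047-71929355, mm9) encodes the largest subunit, which forms the active site together with the product of Polr1b. Its FPKM was 35.0 and 35.9 at 48 h and 24.5 and 22.9 at 72 h with ethanol. With tamoxifen it was 35.8 and 38.2 at 48 h and 27.8 and 24.1 at 72 h. The 72 h mean was thus 66.9% of the 48 h mean with ethanol and 70.2% with tamoxifen, log2 changes of -0.56 ± 0.07 (SE) and -0.50 ± 0.07 (limma, adjusted p = 0.0001373 and 0.0003182).

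Polr1b (chr2:128926732-128952331, mm9), the other large subunit, showed the lowest log2 changes of the 9 genes over time in both treatments. Its FPKM was 48.6 and 49.5 at 48 h and 31.9 and 28.5 at 72 h with ethanol. With tamoxifen the values were 42.3 and 46.5 at 48 h and 25.9 and 22.2 at 72 h. The 4 groups did not overlap, and the tamoxifen libraries were the lower ones at each time. The level at 72 h was 61.5% of that at 48 h with ethanol (log2 -0.68 ± 0.08, adjusted p = 7.568e-05) and 54.2% with tamoxifen (log2 -0.86 ± 0.08, adjusted p = 2.052e-05).

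Polr1c and Polr1e changed less. Polr1c (chr17:46380869-46384994, mm9) encodes a subunit of the assembly platform that RNA polymerase I shares with RNA polymerase III. It measured 99.1 and 102 FPKM at 48 h and 84.4 and 86.2 FPKM at 72 h with ethanol, and 92.5, 88.9, 80.7 and 79.6 FPKM in the same order with tamoxifen. The groups were apart and the falls were shallow, at log2 -0.23 ± 0.05 with ethanol (adjusted p = 0.002633) and -0.18 ± 0.05 with tamoxifen (adjusted p = 0.01284). Without replicate 1 of tamoxifen at 48 h the latter was -0.15 (adjusted p = 0.09255), and with quantile scaling it was -0.09 (adjusted p = 0.1388).

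Polr1e (chr4:45031497-45046564, mm9) encodes a peripheral subunit with a part in initiation. It measured 14.3 and 15.2 FPKM at 48 h and 9.69 and 12.1 FPKM at 72 h with ethanol, where it fell by 0.41 ± 0.09 on the log2 scale (adjusted p = 0.003577). Without replicate 1 of ethanol at 72 h that value was -0.26 (adjusted p = 0.03005). With tamoxifen it measured 13.9 and 13.4 FPKM at 48 h and 11.5 and 11.9 FPKM at 72 h, and its log2 value of -0.20 ± 0.09 did not pass (adjusted p = 0.08509). It had the highest standard error of the 9 genes, and the interval of the tamoxifen value ran from -0.41 to 0.004.

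The initiation factors differed among themselves. Rrn3 (chr16:13780792-13814934, mm9), the factor through which growth signals are known to reach the polymerase, was among the least changed. Its FPKM was 104 and 106 at 48 h and 93.6 and 90.4 at 72 h with ethanol, and 109 and 110 at 48 h and 94.9 and 95.7 at 72 h with tamoxifen. At 72 h it kept 87.5% of its 48 h level with ethanol and 87.1% with tamoxifen, log2 changes of -0.19 ± 0.05 and -0.20 ± 0.05 (adjusted p = 0.007168 and 0.006006). The ethanol call was lost without replicate 2 of ethanol at 48 h (adjusted p = 0.0579) or at 72 h (adjusted p = 0.05086). With quantile scaling neither treatment's value passed, at -0.12 (adjusted p = 0.05971) and -0.10 (adjusted p = 0.1236).

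Ubtf (chr11:102165874-102180410, mm9), whose product is an HMG box protein that coats the active repeats, measured 47.2 and 46.3 FPKM at 48 h and 43.1 and 43.0 FPKM at 72 h with ethanol. With tamoxifen it measured 45.9 and 46.7 FPKM at 48 h and 37.2 and 35.3 FPKM at 72 h. The ethanol libraries at 72 h lay below both 48 h groups, and the tamoxifen libraries at 72 h lay below all others. Between the times it fell by 0.35 ± 0.05 on the log2 scale with tamoxifen (adjusted p = 0.0003875), and with ethanol the log2 value was -0.12 ± 0.05 (adjusted p = 0.0866). After median-ratio scaling the ethanol value was -0.24 and passed (adjusted p = 0.003356).

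Taf1d (chr9:15110658-15121441, mm9), a component of the promoter selectivity factor, measured 64.5 and 68.5 FPKM at 48 h and 50.1 and 49.3 FPKM at 72 h with ethanol. With tamoxifen it measured 71.7 and 67.8 FPKM, then 52.5 and 57.1 FPKM. It fell in both, by 0.41 ± 0.06 and 0.34 ± 0.06 on the log2 scale (adjusted p = 0.0002757 and 0.000932). A gene on the opposite strand overlaps its start and small nucleolar RNA genes lie within it in the GRCm38 annotation, and whether reads were counted by strand is not given in the sources used here, so its values are less certain.

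The nucleolar phosphoproteins fell to similar degrees in both treatments. Tcof1, on chromosome 18, measured 64.1 and 62.6 FPKM at 48 h and 49.8 and 46.6 FPKM at 72 h with ethanol, and 62.0, 64.5, 50.5 and 44.2 FPKM in the same order with tamoxifen. Its log2 changes were -0.39 ± 0.07 and -0.41 ± 0.07 (adjusted p = 0.0008383 and 0.0005915). Nolc1 (chr19:46150353-46160020, mm9) measured 112 and 119 FPKM at 48 h and 78.7 and 80.1 FPKM at 72 h with ethanol. With tamoxifen it measured 106 and 115 FPKM, then 78.5 and 72.1 FPKM. The most abundant of the 9 genes at 48 h was thus at 68.9% and 68.2% of that level at 72 h (log2 -0.53 ± 0.06 and -0.55 ± 0.06, adjusted p = 6.455e-05 and 5.834e-05).

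Tamoxifen was given to delete Htatsf1, and in its comparison with ethanol the loss of Htatsf1 cannot be told apart from tamoxifen itself or from CreERT2 activity. At 48 h, Htatsf1 was already lower by a log2 change of -2.24 ± 0.08 (adjusted p = 4.061e-07), yet 0 of the 9 genes passed the test in limma, beside 12.4% of all tested genes. At an unadjusted p under 0.05 there was 1 gene, Polr1c, at a log2 value of -0.15 ± 0.05. Its adjusted p was 0.08745 in limma, and with median-ratio scaling it passed at -0.18 (adjusted p = 0.04009). In the authors' deposited table, which compares counts divided by size factors, Polr1c was also the 1 member past an adjusted p of 0.05 at 48 h (log2 -0.23, adjusted p = 0.00922). The 95% intervals of the 9 values ran from -0.33 to 0.23 on the log2 scale. Of the 29 fibroblast markers tested, 27 were higher with tamoxifen at 48 h (median log2 change 0.53), and of 16 stem cell markers 1 was higher and 1 lower (median -0.02).

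At 72 h, Polr1b and Ubtf were lower with tamoxifen and the other 7 genes did not pass, whereas 38.5% of all tested genes passed, 20.1% higher and 18.5% lower. Polr1b was at 79.7% of its ethanol level (log2 -0.32 ± 0.08, adjusted p = 0.01264). Ubtf was at 84.2% (log2 -0.24 ± 0.05, adjusted p = 0.00537). For both, the 2 tamoxifen libraries lay below the 2 ethanol libraries. A share of 2 in 9 lower is near that of all tested genes. The authors' deposited table also has these as the 2 members past an adjusted p of 0.05 at 72 h, with log2 values of -0.35 for Polr1b (adjusted p = 9.47e-05) and -0.27 for Ubtf (adjusted p = 0.00041).

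The call on Ubtf held without any single library, with an adjusted p of at most 0.02967. That on Polr1b was lost without either of 2 libraries: its log2 value was -0.24 without replicate 1 of ethanol at 72 h (adjusted p = 0.09671) and -0.21 without replicate 2 of tamoxifen at 72 h (adjusted p = 0.08423). Without the latter library Polr1a passed in the opposite direction, at 0.22 (adjusted p = 0.04579). Among the 7 genes that did not pass, the highest value was that of Taf1d at 0.14 ± 0.06 (adjusted p = 0.09989) and the lowest that of Polr1c at -0.09 ± 0.05 (adjusted p = 0.1924), with 95% intervals from -0.22 to 0.31 over the 7. Of the 29 fibroblast markers tested, 28 were higher with tamoxifen at 72 h, with a median log2 change of 1.07. Of the 16 stem cell markers, 9 were lower and 1 higher (median -0.32). The part of these shifts in the values of Polr1b and Ubtf was not tested.

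Whether the tamoxifen change differed between the times was tested directly. None of the 9 genes passed (3.45% of all tested genes did), and 1 had an unadjusted p under 0.05. It was Ubtf, for which the change at 72 h minus that at 48 h was -0.23 ± 0.08 on the log2 scale (limma, adjusted p = 0.1227). For Polr1b the difference was -0.18 ± 0.12 (adjusted p = 0.4304). The 2 tamoxifen comparisons and the 2 time comparisons share libraries, so their values are not independent of each other.

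**Figure D3:**
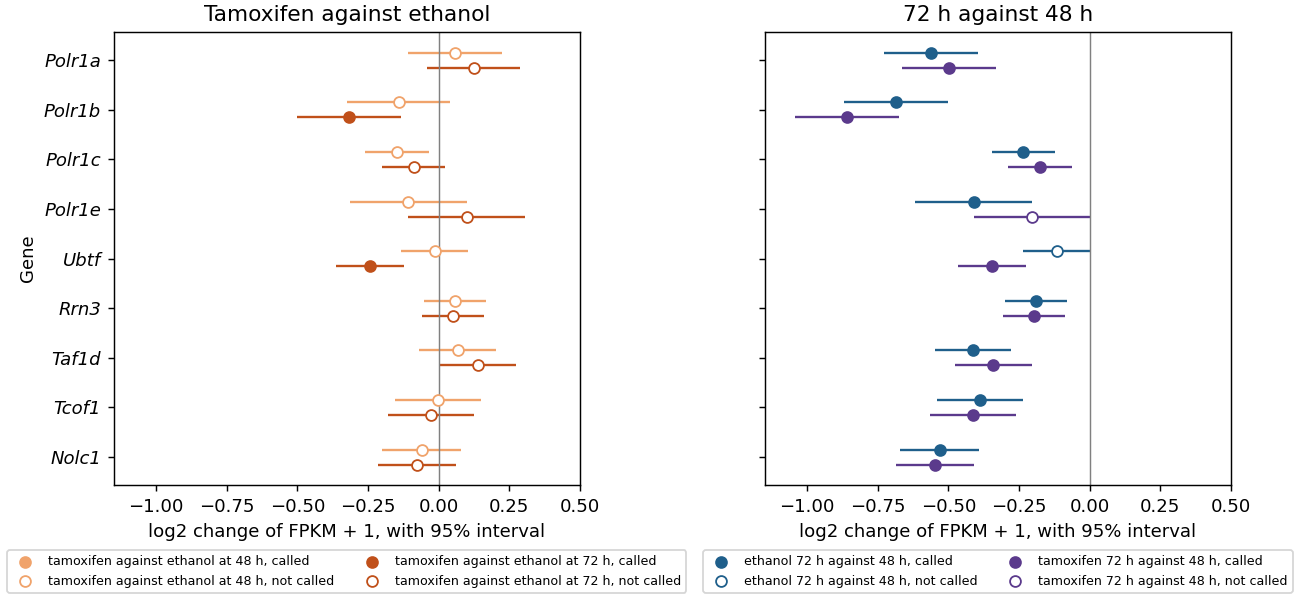
Log2 change in FPKM + 1 of each gene with its 95% interval, for tamoxifen against ethanol at 48 h and 72 h and for 72 h against 48 h in each treatment, with filled points for adjusted p under 0.05. Polr1b and Ubtf are the filled points among the tamoxifen comparisons, and 8 of 9 points are filled in each time comparison.

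The proportion of the 2 large subunits is given as a description, since the ratio was chosen after its values were seen. FPKM of Polr1a over FPKM of Polr1b was 0.72 and 0.727 with ethanol at 48 h, and 0.846 and 0.823 with tamoxifen. At 72 h it was 0.769 and 0.805 with ethanol, and 1.076 and 1.085 with tamoxifen. The tamoxifen libraries were above the ethanol libraries at both times, and at 72 h with tamoxifen Polr1a exceeded Polr1b, which it did in no other group. The log2 ratio was higher with tamoxifen by 0.21 at 48 h and by 0.46 at 72 h. The fibroblast marker sums given above were also higher in the tamoxifen libraries at both times, and their part in the ratio was not tested.

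**Figure D4:**
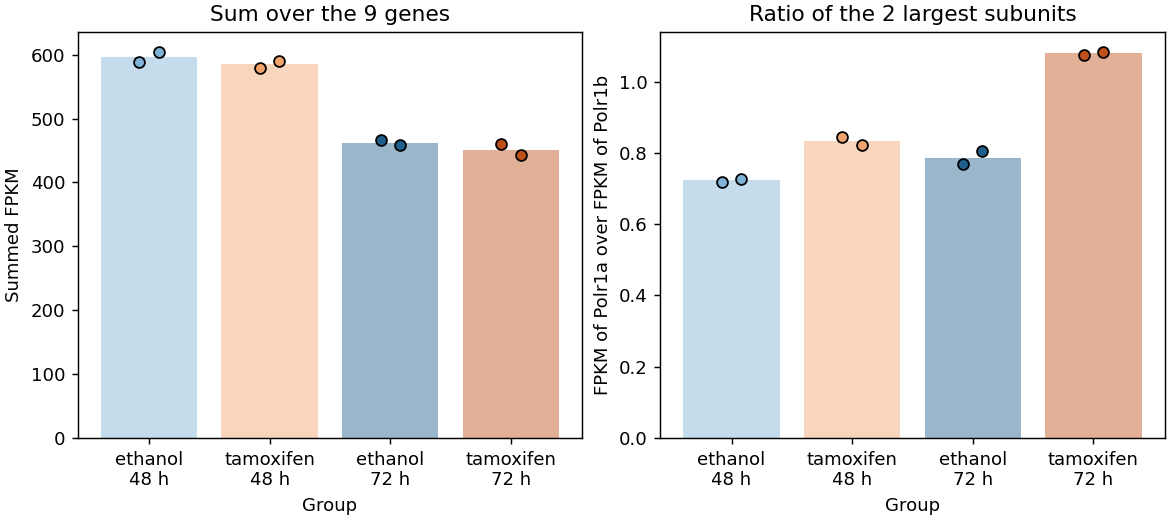
Summed FPKM of the 9 genes, and FPKM of Polr1a over FPKM of Polr1b, with a point per library and a bar at each group mean. The sum separates the times and not the treatments, while the ratio is highest in the 2 tamoxifen libraries at 72 h, at 1.076 and 1.085.

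The other genes of ribosomal RNA synthesis followed the same direction over time in most but not all cases. Over all tested genes on the deposited scale, 19.2% fell and 38% rose with ethanol, and 19.6% fell and 37.5% rose with tamoxifen. A further 9 genes encode subunits, initiation factors and the termination factor of RNA polymerase I, and 8 were tested. Of these, 5 fell and none rose between the times with ethanol (median log2 -0.21), while 6 fell and 1 rose with tamoxifen (median -0.23). The genes called over time in this paragraph are named after their values were seen. Those that fell in both treatments were Cd3eap, Polr1d, Taf1c, Tbp and Znrd1, and the one that rose was Ttf1, which encodes the termination factor. Cd3eap, which encodes a subunit specific to RNA polymerase I, fell from a mean of 19.9 to 9.77 FPKM with ethanol (log2 -0.95 ± 0.08, adjusted p = 8.323e-06). The 5 small subunits shared by all RNA polymerases were mixed, with 2 lower (Polr2e and Polr2l) and none higher with ethanol (median -0.19). With tamoxifen Polr2e and Polr2l were again lower and Polr2k higher (median 0.02). Of 19 tested regulators of ribosomal DNA and nucleolar proteins, 11 fell and 4 rose with ethanol (median -0.35), and 10 fell and 4 rose with tamoxifen (median -0.18).

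Myc, a transcription factor known to drive ribosome production, had the lowest log2 change over time of these regulators. Its mean fell from 32.8 to 7.33 FPKM with ethanol (log2 -2.02 ± 0.09, adjusted p = 5.345e-07) and from 34.0 to 13.4 FPKM with tamoxifen (log2 -1.28 ± 0.09, adjusted p = 3.467e-06). Npm1, the abundant nucleolar chaperone, fell by 0.36 and 0.54 on the log2 scale, and has near-identical pseudogene copies, so its level is uncertain. Cdkn2a, whose ARF product restrains ribosomal RNA synthesis, rose by 0.65 with ethanol and 0.79 with tamoxifen. Its values are for the whole gene and not for ARF alone.

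In the machineries of the other RNA polymerases, genes that fell also outnumbered those that rose on the deposited scale. Among all tested genes more rose than fell on that scale. After median-ratio scaling, 3343 of all tested genes rose and 3371 fell with ethanol, and 3316 rose and 3311 fell with tamoxifen. The lists were not counted on the latter scale. Of 22 genes of RNA polymerase III, 9 fell and 5 rose with ethanol (median -0.14), and 10 fell and 4 rose with tamoxifen (median -0.13). Of 14 core genes of RNA polymerase II, 6 fell and 1 rose with ethanol (median -0.11), and 7 fell and none rose with tamoxifen (median -0.21). These counts and medians describe the lists, and no test compared one list with another.

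For tamoxifen against ethanol at 72 h, the lists were split between directions, as were all tested genes, of which 20.1% were higher and 18.5% lower. The part of the marker shifts given above in the values of these lists was not tested at either time. Among the further RNA polymerase I genes only Taf1b, another component of the selectivity factor, passed, at log2 -0.52 ± 0.09 (adjusted p = 0.001857). Of the shared subunits, Polr2h was lower (-0.44 ± 0.07) and Polr2l higher (0.29 ± 0.09). Among the regulators 3 were higher and 3 lower, with Myc at 0.79 ± 0.09, Cdkn2a at 0.54 ± 0.07 and Npm1 at -0.28 ± 0.08. Of the RNA polymerase III genes 4 were higher and 4 lower, with Gtf3c1, a subunit of the factor that binds the internal promoter, at 0.57 ± 0.07, Polr3gl at -0.52 ± 0.11 and Polr3b at -0.45 ± 0.07. Of the RNA polymerase II genes 3 were higher and 4 lower, with Polr2a, the largest subunit, at 0.33 ± 0.08, the initiation factor subunit Gtf2f2 at -0.61 ± 0.06 and Gtf2a1 at -0.26 ± 0.08. At 48 h, 12.4% of all tested genes passed. Of the lists, 1 shared subunit, Polr2h, was lower (-0.28 ± 0.07). Cdkn2a was the 1 regulator called (0.39 ± 0.07), and the further RNA polymerase I genes had no call. Polr2a (0.29 ± 0.08) and Polr2i (-0.58 ± 0.07) of RNA polymerase II and Bdp1 (0.26 ± 0.07) and Polr3c (-0.46 ± 0.08) of RNA polymerase III passed at that time, of which all but Polr2a are named after their values were seen.

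**Figure D5:**
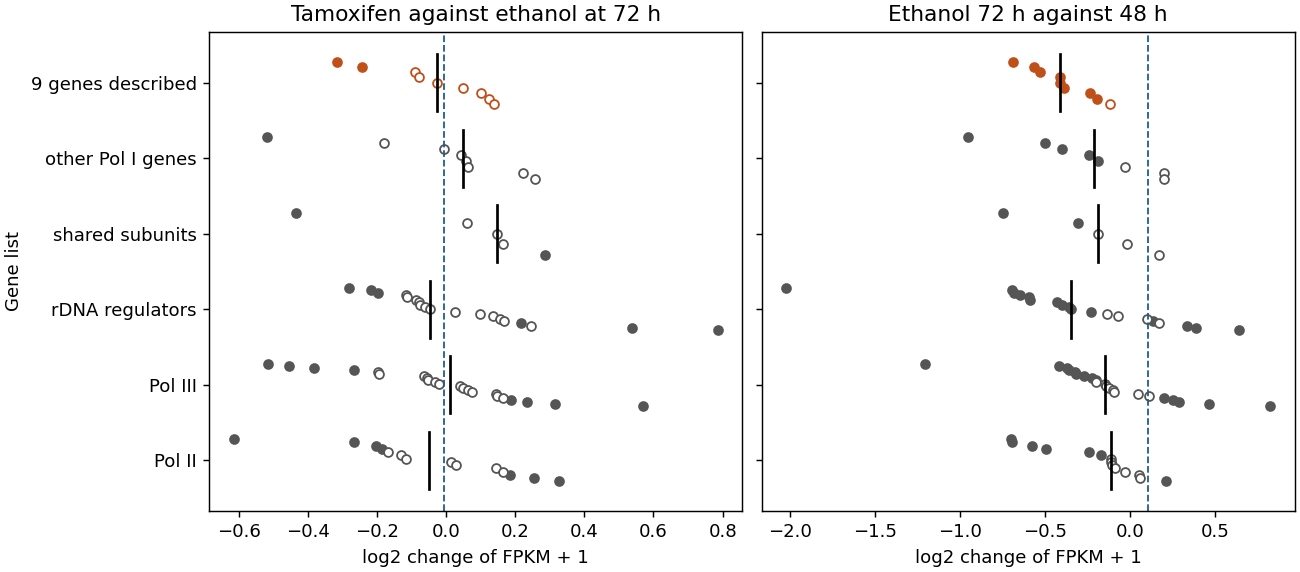
Log2 change in FPKM + 1 of every tested gene of each list, for tamoxifen against ethanol at 72 h and for 72 h against 48 h with ethanol, a point per gene (filled for adjusted p under 0.05), with the list's median as a short bar and that of all tested genes as a dashed line. The 9 RNA polymerase I genes all lie below 0 between the times, and lie on both sides of 0 for tamoxifen against ethanol at 72 h.

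Since most members fell over time, their promoters were read for sequence in common. RefSeq promoter windows on GRCm38.p6 were matched by symbol for 8 of the 9 genes, with 1 window each except for Ubtf. The letters CACGTG are the E-box that Myc is known to bind, and Rrn3 holds them. The 250 bases before the start are shown for Rrn3 and for Polr1b and Nolc1, which hold none. They lie at chr16:13780449-13780698 (plus strand), chr2:129100746-129100995 (plus strand) and chr19:46075597-46075846 (plus strand), and capitals mark CACGTG.
Rrn3: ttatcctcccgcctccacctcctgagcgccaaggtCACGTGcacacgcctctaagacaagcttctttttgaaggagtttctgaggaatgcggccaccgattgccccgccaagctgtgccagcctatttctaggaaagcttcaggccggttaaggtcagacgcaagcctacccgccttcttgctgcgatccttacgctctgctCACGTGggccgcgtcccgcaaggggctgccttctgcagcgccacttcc
Polr1b: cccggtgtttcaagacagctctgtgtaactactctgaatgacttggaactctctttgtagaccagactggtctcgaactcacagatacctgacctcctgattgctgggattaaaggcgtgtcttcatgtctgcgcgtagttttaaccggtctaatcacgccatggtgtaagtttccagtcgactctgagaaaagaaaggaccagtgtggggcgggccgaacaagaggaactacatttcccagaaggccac
Nolc1: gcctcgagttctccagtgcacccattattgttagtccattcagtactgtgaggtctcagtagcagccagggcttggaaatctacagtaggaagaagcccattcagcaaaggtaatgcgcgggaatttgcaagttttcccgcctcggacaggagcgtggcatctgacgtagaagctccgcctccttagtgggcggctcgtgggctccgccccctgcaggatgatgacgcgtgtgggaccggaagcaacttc
The letters CACGTG, which read the same on both strands, occurred 215 and 48 bases before the start of Rrn3 and in none of the other 7 genes' windows. They occurred in 6.02% of all 32851 promoter windows of this length, and at 2 or more places in 0.429%. Counted by gene, as for the members, these shares were 6.86% and 0.5% of 27025 genes. The letters CCGGAAGT or their reverse complement ACTTCCGG are a core that ETS factors are known to bind and do not contain the E-box. In this exact form they occurred only in Polr1c among the 8 genes, 42 bases before its start, and in 2.88% of all windows (3.23% of genes). The Nolc1 window shown above holds ccggaagc, a form that was not searched. Within the 250 bases searched, neither string was found in more than 1 of the 8 genes. Other forms of the motifs and sequence after the start were not searched. The part of Myc in the changes over time was not tested. A match of letters is not a measured site.

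The members' own profiles over the 8 libraries are given as a description, since all 9 genes were already seen to be lower at 72 h. A high correlation with their mean follows from that. The share of all tested genes that reach such values is not given here. The Pearson correlation of a gene's log2(FPKM + 1) with the mean profile of the 9 genes ran from 0.832 in Ubtf to 0.994 in Nolc1, where each gene is part of the mean and the 8 libraries share the split between times. Outside the 9, genes called in any comparison were ranked by this correlation, with uncharacterised genes and small RNAs left out. The highest were Nlrc4 at 0.9985, Zfp428 and Ddx21 at 0.998, and Lmnb1 and Zfp532 at 0.996. Ddx21 encodes an RNA helicase of the nucleolus and was at 154 FPKM at 48 h and 95.2 FPKM at 72 h with ethanol. Lmnb1, which encodes lamin B1 of the nuclear lamina, was at 258 and 181 FPKM. Nlrc4 was at 3.51 and 0.889 FPKM, near the limit of what was tested.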

How the data were processed

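Polyadenylated RNA was sequenced as 100-base paired ends, per the labels' protocols. Each library has a deposited table of FPKM per gene from the authors, laid out as Cufflinks writes it. BWA 0.6.1, TopHat 1.4.1, Cufflinks 1.3.0, HTSeq, DESeq and build mm9 are named per the submitters' processing notes, without roles. The authors' 2 comparison tables give a signal, the mean of counts divided by size factors, a fold ratio, a log2 ratio of ethanol over tamoxifen (sign turned here), and p-values, per the file headers.

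Of 20789 entries, 209 whose status was not OK in a library were left out and the entry of highest mean FPKM was kept per identifier (20388). Genes that reached an FPKM of 1 in 2 or more of the 8 libraries (11867) were tested on log2(FPKM + 1), unscaled, with limma 3.58.1 in R 4.3.3, one mean per group, 4 residual degrees of freedom, a mean trend and Benjamini-Hochberg adjustment over all tested genes. A call is an adjusted p under 0.05, and intervals are 95% from the fit. A fold on this scale understates the change of low genes. Fragments per library were estimated from the width of the deposited FPKM intervals. The procedure was tested on simulated data.

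The members and lists were chosen with earlier results of these data known. Genes named were the 9 members, Htatsf1, and up to 3 called genes with the largest change for tamoxifen at 72 h from each list. Also named were the 5 genes most like the members' mean among characterised genes called in any comparison, and the 3 most abundant fibroblast and stem cell markers. Others are said to be picked later. Replicate numbers came from the labels, and the deviations of same-numbered libraries correlated at -0.276 to 0.145 over genes, so the numbers were not taken as pairs. Alternatives were other pseudocounts (0.1 and 5), filters, median-ratio and quantile scaling, no trend, 4 libraries per fit, a replicate block and leaving out each library.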

Additional observations from a re-analysis of the deposited data

Results flagged for a closer look

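For 2 of the genes named beside the members, the tamoxifen change differed between 72 h and 48 h by the test of that difference in limma. That test was passed by 3.45% of all tested genes. Both genes were named for a large tamoxifen change at 72 h, and that change is part of the difference tested. The choice and the test thus share values, and the 2 results are given as a description. For Gtf2f2, an initiation factor subunit of RNA polymerase II, the log2 change was lower at 72 h by -0.45 ± 0.09 (adjusted p = 0.03024), with group means of 32.9 and 29.1 FPKM at 48 h (ethanol, tamoxifen) and 34.2 and 21.9 FPKM at 72 h. For Myc it was higher at 72 h by 0.74 ± 0.12 (adjusted p = 0.01627), with means of 32.8 and 34.0 FPKM at 48 h and 7.33 and 13.4 FPKM at 72 h. None of the 9 RNA polymerase I genes differed in this way.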

How the results depend on the processing

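Over 855 values of the 9 genes under the alternatives, 821 kept direction and side of the threshold, 8 calls were lost, 9 were gained and 17 uncalled values changed sign. Much of this was fixed by design. The filters, the fit without the trend, 4 libraries per fit and the replicate block left every log2 value as it was. For these only the adjusted p could change. The same holds where the library left out was not in the comparison. The 855 values are thus not independent checks, and 821 does not measure how stable the results are. The count of members called for tamoxifen at 48 h went from 0 to 1 with median-ratio scaling, and at 72 h it was 1 to 2 when a library was left out and 3 with quantile scaling, where Taf1d passed (0.16, adjusted p = 0.04508). Over time it was 7 to 8 with ethanol and 7 to 9 with tamoxifen without 1 library. Quantile scaling ended the calls on Rrn3 with ethanol (-0.12) and on Polr1c (-0.09) and Rrn3 (-0.10) with tamoxifen, and the cause was not tested. With the replicate block the counts were 0, 2, 0, 8 and 8 for tamoxifen at 48 h, tamoxifen at 72 h, their difference, and time with ethanol and tamoxifen, as without it, and it changed no count of members. Over genes, the difference of library 1 minus library 2 with tamoxifen at 48 h correlated negatively with that at 72 h (-0.276). A crossed block, chosen after seeing the data, gave 8 for time with tamoxifen. Sign changes without a call were Tcof1 at 48 h (3e-04 with quantile scaling; -0.0301 to 0.0265 without 1 library), Polr1e and Tcof1 at 72 h (-0.0486 to 0.249; -0.1208 to 0.0657), and differences of the tamoxifen change in Rrn3 (0.0026 with median-ratio and 0.0254 with quantile scaling; -0.0327 to 0.0176), Nolc1 (-0.0767 to 0.0442), Tcof1 (-0.119 to 0.0675) and Polr1a (-0.0347 to 0.1634). Over all genes, calls on the difference were 409, but 44 with no filter, 226 without the trend, 266 with the replicate block and 50 to 243 without 1 library. At 48 h they were 1466, 958 with no filter and 440 to 1583 without 1 library. Libraries of a group had 1.58 to 2.51 times the variance that counting alone gives, so both depth and other variation limit the precision.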

Other observations

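RNA polymerase III has alternative forms of 1 subunit, from Polr3g, known from stem cells, and Polr3gl, known from differentiated cells. Polr3g, picked after its values were seen, fell from a mean of 25.8 to 21.3 FPKM between 48 h and 72 h with ethanol (log2 -0.27 ± 0.07, limma adjusted p = 0.009468), whereas Polr3gl rose from 3.67 to 7.28 FPKM (log2 0.83 ± 0.11, adjusted p = 0.0001303). With tamoxifen, Polr3g was at 25.0 and 20.3 FPKM and Polr3gl at 2.66 and 4.79 FPKM, log2 changes of -0.29 ± 0.07 and 0.67 ± 0.11 (adjusted p = 0.007006 and 0.0005397).

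Another nucleolar gene and a transcription factor, both also picked after their values were seen, fell over time in both treatments. Ncl, which encodes nucleolin, had means of 569 and 354 FPKM with ethanol and 530 and 327 FPKM with tamoxifen, log2 changes of -0.68 ± 0.06 and -0.70 ± 0.06 (adjusted p = 7.057e-06 and 7.552e-06). Mycn, the Myc relative of stem and progenitor cells, fell from 127 to 80.6 FPKM with ethanol (log2 -0.65 ± 0.05) and from 131 to 69.2 FPKM with tamoxifen (log2 -0.91 ± 0.05).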
